A study of Homo sapiens with 6 samples.

Results

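The expression of 46 genes for integrins, matrix proteins and matrix proteases was compared between SKOV3 cells kept with fenbendazole and SKOV3 cells kept with DMSO. The genes were taken by symbol from the deposited table of 61552 genes, and each symbol matched 1 row. They comprised 6 integrin alpha and 6 integrin beta subunits, 7 laminin chains, 9 collagen chains, 6 genes of fibronectin and matricellular proteins, 4 of fibrillin, basement membrane proteoglycans and a crosslinking enzyme, 5 matrix metalloproteinases (MMPs) and 3 tissue inhibitors of metalloproteinases (TIMPs). SKOV3 is an established human ovarian carcinoma line with high ERBB2. Each of the 2 groups held 3 poly(A) RNA libraries. One group received fenbendazole, a benzimidazole anthelmintic that binds tubulin, at 1 µM for 48 h, and the control group received DMSO, the solvent. Libraries carry the numbers of their titles, DMSO 10, 11 and 12 and fenbendazole 7, 8 and 9. The labels do not say that the libraries of a group came from separate cultures, and p-values then reflect how far these libraries differ among themselves, which may be technical variation alone.

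Integrins are pairs of an alpha and a beta subunit that span the cell membrane and tie matrix proteins outside to actin inside. The matrix beneath an epithelium, the basement membrane, is built of laminin trimers, type IV collagen and proteoglycans such as perlecan and agrin. Matricellular proteins such as tenascin-C and thrombospondin-1 sit in the matrix and modulate adhesion without bearing load. MMPs cleave these proteins and TIMPs block MMPs. In ovarian carcinoma, integrins and fibronectin are known for their part in the attachment of shed tumour cells to the peritoneum.

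Total counts per library ran from 13170775 to 22128930, so that 3 counts corresponded to 0.136 to 0.228 CPM, the counts scaled to a common library size. DMSO 11 stood apart. Its median absolute log2 distance to the other control libraries over tested genes was 0.53, against 0.28 and 0.35 for DMSO 10 and 12 and 0.13 to 0.15 in the treated libraries. Its deviation from the other controls increased with the GC content of the transcripts (Spearman rho 0.80 across the 16975 tested genes with a known GC content), so fold changes, calls and class medians below are given with and without it. Of the markers of the line, PAX8 and EPCAM averaged 276 and 62.7 CPM in the controls, while WT1 stayed at or below 1.26 CPM and MUC16 at or below 3.20 CPM. With all libraries 2 of 10 epithelial carcinoma markers fell, ERBB2 and CDH1, and 0 rose. Over all tested genes 0.921% were called lower and 3.11% higher. ERBB2 was at 8585, 15881 and 7806 CPM in DMSO 10, 11 and 12. Its log2 fold change was -1.29 with all libraries and -0.89 without DMSO 11, and that of CDH1 was -0.76 and -0.71. Both genes passed in each of these 2 fits. PAX8 had a log2 fold change of -0.39 with all libraries (edgeR adjusted p = 0.226). Without DMSO 11 it passed at -0.20 (adjusted p = 0.0439). KRT7, an epithelial keratin, was at 76.7, 183 and 71.3 CPM in the controls and 228, 231 and 225 CPM in the treated libraries, a log2 fold change of 1.05 ± 0.348 (edgeR adjusted p = 0.148), and it passed without DMSO 11 at 1.63 (adjusted p = 1.95e-09). The summed level of the 10 markers was 8781 to 17474 CPM in the controls and 5303 to 5860 CPM in the treated libraries, most of it ERBB2. Their part in the results below was not tested. The 7 fibroblast markers summed to 24.1 to 30.5 CPM in the controls and 26.5 to 28.0 CPM in the treated libraries, with DCN below 1 CPM in every library. The 6 leukocyte markers summed to 16.3 to 26.9 CPM and 20.1 to 22.7 CPM, with CD3E at 0 in all libraries, and the 4 endothelial markers to 10.4 to 12.3 CPM and 13.3 to 14.1 CPM, with VWF and CDH5 below 1 CPM in every library.

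With fenbendazole, 3 of the 46 genes rose and 0 fell. They were LAMA3, which encodes the laminin alpha 3 chain, and the matricellular genes TNC (tenascin-C) and THBS1 (thrombospondin-1). The integrin, collagen, MMP and TIMP classes had 0 genes past the threshold, a Benjamini-Hochberg adjusted p of 0.05 in edgeR's quasi-likelihood test over all 17363 genes tested. All 46 genes passed the filter on low counts. Over all tested genes the same rule called 3.11% higher and 0.921% lower, 4.03% in all, so the share of these 46 genes called higher, 6.52%, rests on a count of 3. At an unadjusted p below 0.05 the test gave 3699 of 17363 genes. Upper-quartile scaling changed the split over all genes from 540 higher and 160 lower to 455 and 231, and moved the all-gene median log2 fold change to -0.13. The median log2 fold change of the 46 genes was -0.05, beside -0.06 over all tested genes, and 22 of the 46 were above 0. Without DMSO 11 the 46-gene median was 0.05 with 24 above 0, beside an all-gene median of -0.01, and with offsets for GC content and length it was 0.07 with 27 above 0, beside -0.02, so its sign differed between fits. In bulk RNA a change in the number of transcripts per cell and a change in the share of cells that express a gene cannot be told apart.

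LAMA3 (ENSG00000053747, GRCh38 chromosome 18, 23689453 to 23956222) was at 83.5, 73.6 and 75.5 CPM in DMSO 10, 11 and 12 and at 156, 163 and 142 CPM in the treated libraries 7, 8 and 9. The groups did not overlap, and DMSO 11 lay close to the other controls. On the log2 scale the difference was 0.99 ± 0.124 (SE, edgeR adjusted p = 0.007), a 1.98-fold higher level. It was 0.96 ± 0.0828 without DMSO 11 (adjusted p = 1.74e-06). Without fenbendazole 7 or 8 the log2 fold change was 0.98 or 0.95 and the adjusted p 0.0642 or 0.0619, so the call was lost.

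LAMA3 and LAMB3 are chains of laminin-332, the laminin that anchors epithelial cells through integrins alpha 3 beta 1 and alpha 6 beta 4. LAMB3, the beta 3 chain, stood at 470.3, 776 and 407 CPM in the controls and 469, 488 and 418 CPM in the treated libraries. The treated libraries of LAMB3 lay within the range of DMSO 10 and 12 or just above it, and DMSO 11 was far above both groups. Its log2 fold change was -0.27 ± 0.239 (edgeR adjusted p = 0.548), and 0.07 ± 0.0803 without DMSO 11 (0.586). In FPKM, the deposited unit of level per length, LAMB3 was the more abundant of these chains. LAMB3 had 126 ± 48.7 FPKM (SD, n = 3) in DMSO and 98.6 ± 7.99 FPKM in the treated libraries. LAMA3 had 9.38 ± 1.8002 and 21.3 ± 2.59 FPKM. Deposited FPKM was not a fixed multiple of CPM for a gene. For LAMA3 the ratio of FPKM to CPM ran from 0.747 to 1.09 times its median over the libraries. DMSO 11 held 7.32 FPKM of LAMA3, against 10.6 and 10.2 FPKM in DMSO 10 and 12.

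**Figure D1:**
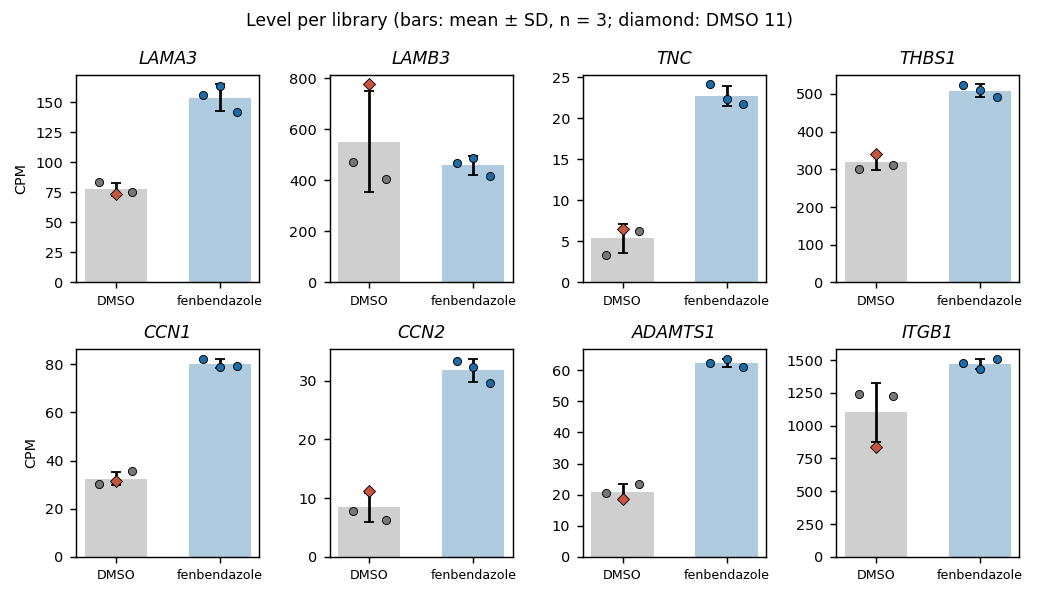
Level in CPM (y axis, from 0) in each library of the 2 groups for the laminin-332 chains LAMA3 and LAMB3, the matricellular genes TNC, THBS1, CCN1 and CCN2, the protease ADAMTS1 and the integrin ITGB1. Bars are means with SD of 3 libraries, and the diamond is DMSO 11, which lies near the other controls for LAMA3 (73.6 CPM) but above them for LAMB3 (776 CPM) and below them for ITGB1 (840.3 CPM).

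The other laminin chains among the 46 genes did not pass the threshold. LAMC1, the gamma 1 chain of most laminins, followed LAMB3 in level per length among these laminin genes, at 94.9 ± 7.92 FPKM in the controls and 78.4 ± 3.18 FPKM in the treated libraries. Its levels were 900.1, 826 and 758 CPM in the controls and 729, 739 and 700.02 CPM in the treated libraries, groups that did not overlap, with a log2 fold change of -0.20 ± 0.115 (edgeR adjusted p = 0.355), and -0.19 without DMSO 11 (0.0667). LAMA4 was scarce, with 94, 109 and 64 counts in the controls and 47, 41 and 29 with fenbendazole. The fitted value was -0.93 ± 0.297 (edgeR adjusted p = 0.133), and -0.95 without DMSO 11, where it passed (adjusted p = 0.045). LAMA5, the alpha chain of laminin-511, was at 198, 626 and 185 CPM in the controls and 203, 207 and 160 CPM in the treated libraries. Without DMSO 11 its log2 fold change moved from -0.82 ± 0.456 to -0.003 ± 0.106. LAMB2, the beta 2 chain, was at -0.64 with all libraries and -0.18 without that library, and its groups did not overlap. LAMB1 was at -0.06 and -0.08. The spans of LAMA5 and LAMB1 overlap ADRM1 and DLD, whose mean levels were 75.7 and 67.1 CPM, so reads may be shared.

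TNC (ENSG00000041982, chromosome 9, 115019575 to 115118257) was the member with the largest change. It had 59, 147 and 85 counts in DMSO 10, 11 and 12 and 364, 309 and 369 with fenbendazole 7, 8 and 9. As levels these were 3.29, 6.45 and 6.32 CPM against 24.1, 22.3 and 21.7 CPM, so each treated library held over 3 times the highest control. The fitted log2 change was 2.08 ± 0.281 (edgeR adjusted p = 0.00916), 4.24-fold, and 2.27 ± 0.237 without DMSO 11 (adjusted p = 2.92e-05). TNC alone of the 46 genes both passed the threshold and changed at least 2-fold, which 2.23% of all tested genes did in the higher direction. It no longer passed without fenbendazole 7, 8 or 9 (adjusted p = 0.0661, 0.0619 and 0.0611), while the log2 fold change stayed between 1.83 and 2.27 without each library in turn. Per length TNC was a minor matrix transcript, at 0.617 ± 0.243 FPKM in the controls and 2.64 ± 0.619 FPKM in the treated libraries.

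THBS1 (ENSG00000137801, chromosome 15, 39581079 to 39599466) encodes a trimeric glycoprotein that binds CD47 and CD36 and can release TGF-beta from its latent form. It was at 302, 341 and 312 CPM in the controls and 524, 511 and 492 CPM in the treated libraries, without overlap. On the log2 scale the difference was 0.68 ± 0.112 (edgeR adjusted p = 0.0175), 1.60-fold, and 0.74 ± 0.0609 without DMSO 11 (adjusted p = 1.14e-06). It no longer passed without DMSO 10 or 12 (adjusted p = 0.0904 and 0.0568), without fenbendazole 7, 8 or 9 (0.135, 0.126 and 0.114) and with limma on the deposited FPKM (0.051), the log2 fold change lying between 0.56 and 0.70 in these fits.

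The sequences before the transcript starts of the 3 genes that rose are shown because LAMA3 and THBS1 each hold a motif that was searched in the 36 members with a window. The windows are the 250 bases upstream of the start in RefSeq's table (build GRCh38.p14), on the strand of the gene, 5′ to 3′, with motif matches in capitals. Those of LAMA3 (chr18:23872770-23873019, plus strand) hold TGACTCA at positions -125 to -119 and TGAGTCA at -69 to -63, both AP-1 motifs. That start lies 183567 bases inside the deposited span of LAMA3. Whether that start is used in these cells was not tested. THBS1 (chr15:39580829-39581078, plus strand) holds the TEAD motif GGAATG at -46 to -41. The window of TNC (chr9:115118158-115118407, minus strand) holds none of the 3 motifs.
LAMA3: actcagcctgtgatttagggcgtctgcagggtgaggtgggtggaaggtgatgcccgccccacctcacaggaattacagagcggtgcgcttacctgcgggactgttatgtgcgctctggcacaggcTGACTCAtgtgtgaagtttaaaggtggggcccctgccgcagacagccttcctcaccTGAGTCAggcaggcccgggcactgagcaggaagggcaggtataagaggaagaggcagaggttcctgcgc
THBS1: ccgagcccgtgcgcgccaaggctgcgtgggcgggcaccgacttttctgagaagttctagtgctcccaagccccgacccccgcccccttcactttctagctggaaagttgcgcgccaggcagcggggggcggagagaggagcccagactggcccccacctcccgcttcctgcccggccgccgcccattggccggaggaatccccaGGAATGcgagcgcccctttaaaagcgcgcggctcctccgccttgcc
TNC: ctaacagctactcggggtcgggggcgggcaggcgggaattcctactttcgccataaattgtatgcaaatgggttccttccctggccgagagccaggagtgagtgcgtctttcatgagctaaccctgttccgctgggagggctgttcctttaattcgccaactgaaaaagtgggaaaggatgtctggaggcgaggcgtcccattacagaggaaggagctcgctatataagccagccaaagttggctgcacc

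The motifs searched, on both strands, were TGANTCA for AP-1, GGAATG for TEAD and a 10-base NF-kB motif, and no matches overlapped in the members. RefSeq's table gave 45 windows for 36 of the 46 members. AP-1 was found in 4 windows (LAMA3, LAMB3, MMP7 and POSTN), 8.89% of them, against 6.57% of all 35116 windows in the table. TEAD was found in 6 windows (SPARC, COL12A1, ITGB1, ITGA5, THBS1 and FBN1), 13.3% against 11.9%, and NF-kB in 0 against 1.73%. A match is a description of letters and does not show binding. Of the AP-1 subunits only FOSL1 and JUN are given here, and a link between them and these windows was not tested. FOSL1 was at 9.93 ± 3.68 CPM in the controls and 53.1 ± 2.77 CPM in the treated libraries. JUN had a log2 fold change of 0.87 ± 0.273 (edgeR adjusted p = 0.131), which was 1.26 without DMSO 11 (adjusted p = 1.56e-06). FOSL1 rose (log2 fold change 2.41, edgeR adjusted p = 0.00402), and by 2.77 without DMSO 11. The growth factor gene TGFB3 fell from 17.5 ± 1.92 to 4.49 ± 0.793 CPM (log2 fold change -1.96, adjusted p = 0.00401), and was at -2.005 without DMSO 11.

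The other 4 genes of the fibronectin and matricellular class had no call with all libraries. FN1, fibronectin, was the second most abundant of the 46 genes per length, at 195 ± 20.1 FPKM in the controls and 210.4 ± 8.67 FPKM in the treated libraries. Its levels were 1692, 1790.04 and 1553 CPM against 1918, 2003 and 1917 CPM, groups that did not overlap. Its log2 fold change was 0.21 ± 0.110 (edgeR adjusted p = 0.302), and 0.27 ± 0.0573 without DMSO 11, where it passed (adjusted p = 0.00397). SPP1, osteopontin, stood at 294, 201 and 276 CPM in the controls and 241, 255 and 255 CPM in the treated libraries, a log2 fold change of -0.04 ± 0.160 (edgeR adjusted p = 0.907), and -0.18 without DMSO 11 (0.0565). SPARC, a collagen-binding glycoprotein, was at 0.19 ± 0.121 (edgeR adjusted p = 0.399) and at 0.23 without DMSO 11 (0.0433). POSTN, periostin, had 49, 32 and 40 counts in the controls and 76, 61 and 139 with fenbendazole. Its log2 fold change of 1.32 ± 0.386 did not pass (edgeR adjusted p = 0.110), and it did in DESeq2 (0.0238), which called 4 of the 46 genes higher and 0 lower beside 6.11% and 4.28% of all genes, and without DMSO 11 (1.06 ± 0.312, adjusted p = 0.0267). For the 6 genes of this class the median log2 fold change was 0.44 with all libraries and 0.50 without DMSO 11, with 5 above 0 in both. The same 5, FN1, TNC, THBS1, SPARC and POSTN, had treated libraries all above the controls, as did 17.0% of all tested genes.

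Integrin genes included the most abundant transcript of the 46, ITGB1, the beta subunit shared by most matrix-binding integrins. Per length it was at 254 ± 40.5 FPKM in the controls and 313 ± 23.3 FPKM in the treated libraries. Its levels were 1239, 840.3 and 1224 CPM in the controls and 1479, 1433 and 1509 CPM in the treated libraries, without overlap. The fitted value was 0.42 ± 0.166 (edgeR adjusted p = 0.204). Without DMSO 11, its lowest control, the change was smaller but less variable and passed the threshold, 0.27 ± 0.0539 (adjusted p = 0.00294).

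ITGA3, the alpha subunit that pairs with beta 1 to bind laminin-332, followed FN1 per length at 199 ± 77.7 FPKM in the controls and 199 ± 16.9 FPKM in the treated libraries. It stood at 852, 1505 and 789 CPM in the controls and 1073, 1155 and 1012 CPM in the treated libraries, so the treated libraries lay between DMSO 11 and the other controls. The fitted log2 change was 0.04 ± 0.245 (edgeR adjusted p = 0.934) and 0.40 ± 0.0666 without DMSO 11 (adjusted p = 0.000635). ITGB4, which pairs with alpha 6 in hemidesmosomes, had the same arrangement, with 177, 316 and 140.2 CPM in the controls and 227, 232 and 206 CPM in the treated libraries. On the log2 scale the difference was 0.07 ± 0.282 (edgeR adjusted p = 0.905) and 0.49 ± 0.0955 without DMSO 11 (adjusted p = 0.00375). ITGA6, its partner, was at 735, 582 and 645 CPM in the controls and 601, 605 and 609 CPM in the treated libraries, with log2 fold changes of -0.11 and -0.18 in these 2 fits (adjusted p = 0.629 and 0.0544).

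ITGA1, a collagen receptor subunit, had the opposite arrangement. It was at 80.0, 49.1 and 80.2 CPM in the controls and 57.5, 57.6 and 56.2 CPM in the treated libraries. Its log2 fold change was -0.29 ± 0.203 (edgeR adjusted p = 0.441) and -0.48 ± 0.0808 without DMSO 11 (adjusted p = 0.000754). Its span holds PELO, with a mean of 44.1 CPM, so its reads may be shared. ITGA5, the fibronectin receptor subunit, and ITGB5 also passed the threshold without DMSO 11, at 0.45 and 0.27 (adjusted p = 0.0112 and 0.0193). ITGB3, which pairs with ITGAV to bind vitronectin and osteopontin, was at 50.2, 48.4 and 44.0 CPM against 55.8, 57.3 and 57.9 CPM. It passed neither with all libraries nor without DMSO 11 (adjusted p = 0.280 and 0.0515). For ITGA2, ITGAV, ITGB6 and ITGB8 the log2 fold changes ran from 0.06 to 0.12, and from -0.16 to -0.02 without DMSO 11, with no call. The median over 6 alpha subunits was 0.05 with all libraries, -0.09 without DMSO 11 and -0.07 with the GC and length offsets. Over 6 beta subunits it was 0.11, 0.27 and 0.22.

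**Figure D2:**
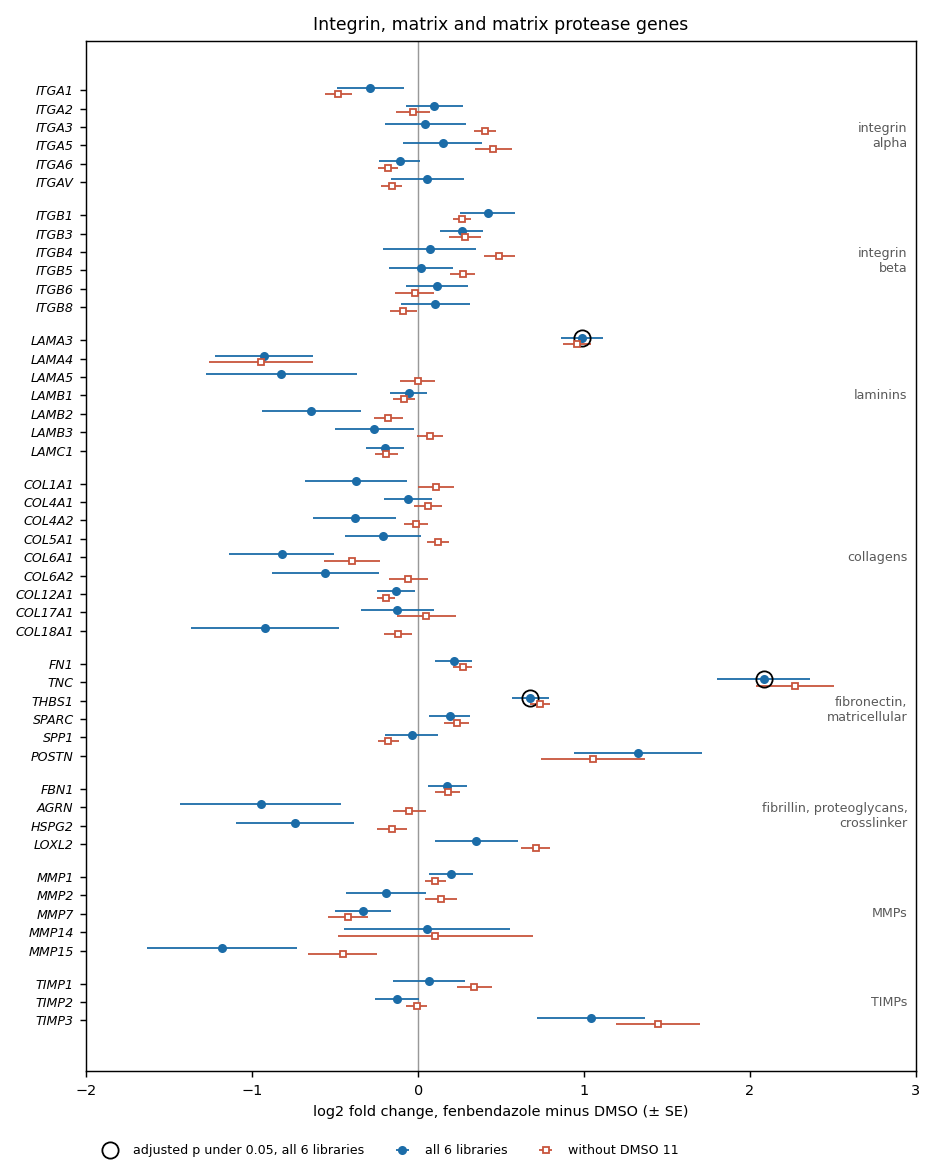
Log2 fold change (x axis, fenbendazole minus DMSO, with SE) of the 46 genes by class, from all 6 libraries (filled circles) and without DMSO 11 (open squares); rings mark LAMA3, TNC and THBS1, which passed the threshold with all 6 libraries. The 9 collagen genes lie below 0 with all libraries, and 4 of them lie above 0 without DMSO 11.

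With all libraries, collagen genes gave 0 calls in either direction. All 9 had a fitted log2 fold change below 0, from -0.92 to -0.06 with a median of -0.37, and without DMSO 11 only 5 were below 0, with a median of -0.01. With offsets for GC content and length 3 of 9 were below 0 and the median was 0.08. The direction of this class therefore differed between fits. COL12A1, which decorates collagen fibrils, was the most abundant collagen per length at 136 ± 5.30 FPKM in the controls and 117 ± 6.33 FPKM in the treated libraries. It stood at 1822, 1532 and 1739 CPM in the controls and 1589, 1556 and 1501 CPM in the treated libraries, with log2 fold changes of -0.13 ± 0.115 (edgeR adjusted p = 0.531) and, without DMSO 11, -0.19 ± 0.0544 (0.0207). COL18A1, the basement membrane collagen that yields endostatin, was at 348, 1071 and 321 CPM in the controls and 323, 325 and 269.8 CPM in the treated libraries. The fitted value was -0.92 ± 0.445 (edgeR adjusted p = 0.277), and -0.12 ± 0.0829 without DMSO 11 (0.342). DMSO 11 held 3.20 times the mean of the other controls. COL4A1 and COL4A2, which encode chains of type IV collagen, overlap at their 5′ ends on opposite strands, so some reads cannot be assigned with certainty. They were at -0.06 and -0.38, and at 0.06 and -0.01 without DMSO 11. COL6A1 was at -0.82 ± 0.319 (edgeR adjusted p = 0.198) and its groups did not overlap. Without DMSO 11 it was at -0.40 (0.123). COL5A1 was at -0.21 with all libraries, at 0.12 without DMSO 11, and passed with the GC and length offsets, at 0.20 (adjusted p = 0.0322). COL1A1, COL6A2 and COL17A1 lay between -0.56 and -0.13, and between -0.06 and 0.11 without DMSO 11.

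The basement membrane proteoglycan genes did not pass the threshold. AGRN, agrin, was at 311, 1062 and 287 CPM in the controls and 316, 299 and 246 CPM in the treated libraries. Its log2 fold change moved from -0.95 ± 0.485 (edgeR adjusted p = 0.301) to -0.05 ± 0.0997 without DMSO 11 (0.765). HSPG2, perlecan, was at -0.74 and -0.16 in the 2 fits. LOXL2, a lysyl oxidase that crosslinks collagen, was at 95.7, 161 and 80.9 CPM in the controls and 146, 153 and 133 CPM in the treated libraries. The fitted log2 change was 0.35 ± 0.250 (edgeR adjusted p = 0.446), and 0.71 ± 0.0886 without DMSO 11 (adjusted p = 6.54e-05), though its span overlaps ENTPD4 (102 CPM on average). FBN1, the microfibril protein fibrillin-1, was at 0.18 in both fits, without a call.

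MMP and TIMP genes gave 0 calls with all libraries. MMP1, the interstitial collagenase, was the most abundant MMP per length, at 94.4 ± 8.59 FPKM in the controls and 103 ± 5.53 FPKM in the treated libraries. It stood at 224, 177 and 221 CPM in the controls and 234, 248 and 229.9 CPM in the treated libraries, a log2 fold change of 0.20 ± 0.133 (edgeR adjusted p = 0.420), and 0.10 without DMSO 11 (0.289). MMP2, gelatinase A, was at 84.0, 139 and 74.3 CPM against 94.7, 86.9 and 78.6 CPM, and its log2 fold change was -0.20 ± 0.241 (edgeR adjusted p = 0.667), and 0.14 without DMSO 11 (0.343). MMP15, a membrane-anchored MMP, had the lowest fitted value of the 46 genes, -1.18 ± 0.452 (edgeR adjusted p = 0.194). It was at 11.6, 29.6 and 8.55 CPM in the controls and 8.41, 6.9998 and 6.60 CPM in the treated libraries, and its value without DMSO 11 was -0.45 (0.143). MMP7, matrilysin, was at -0.33 (edgeR adjusted p = 0.296), and at -0.42 without DMSO 11 (0.0216). MMP14, which activates pro-MMP2 at the cell surface, had 9 to 26 counts per library, and its log2 fold change of 0.05 ± 0.498 was not distinguishable from 0 at this depth (0.10 without DMSO 11).

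Among the inhibitors TIMP2 and TIMP1 were abundant and TIMP3 scarce. TIMP2 was at 330.3, 397 and 312 CPM in the controls and 310.0, 335 and 308 CPM in the treated libraries, with a log2 fold change of -0.13 ± 0.132 (edgeR adjusted p = 0.610), and -0.01 without DMSO 11 (0.945). TIMP1 was at 43.5, 68.0 and 41.4 CPM against 48.1, 56.4 and 55.7 CPM. Its value was 0.07 ± 0.214 (edgeR adjusted p = 0.881), and 0.34 ± 0.105 without DMSO 11 (0.0332). TIMP3, which binds to the matrix, had 47, 131 and 46 counts in the controls and 128, 125 and 118 with fenbendazole. As levels these were 2.62, 5.75 and 3.42 CPM against 8.47, 9.02 and 6.95 CPM, without overlap. On the log2 scale the difference was 1.04 ± 0.326 (edgeR adjusted p = 0.129), and 1.44 ± 0.253 without DMSO 11 (adjusted p = 0.00103).

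**Figure D3:**
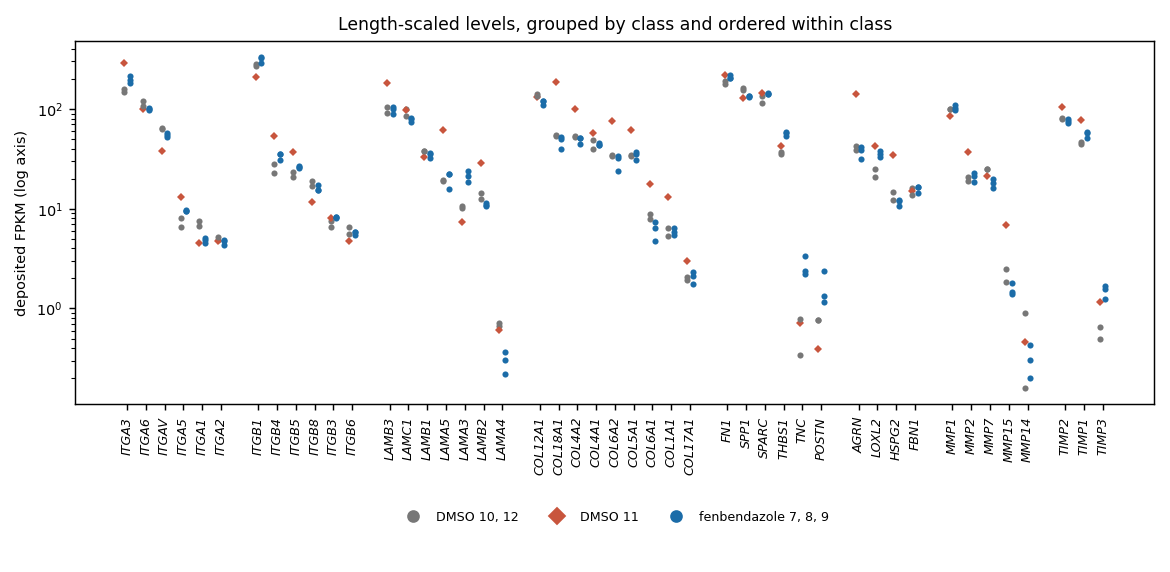
Deposited FPKM (log y axis), a level per length, of each of the 46 genes (x axis, by class and then by mean level) in each library. The genes past the threshold with all libraries, LAMA3, TNC and THBS1, lie higher in the treated libraries. TNC, POSTN, TIMP3, LAMA4, MMP14 and COL17A1 lie near or below 3 FPKM, as does MMP15 outside DMSO 11 (6.83 FPKM).

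Leaving out DMSO 11 changed the number of calls from 3 to 18, of which 14 were higher and 4 lower. Over all 17689 genes tested in that fit, 13.1% were higher and 9.23% lower (22.3% in all). Of the 46 genes, 30.4% were higher and 8.70% lower. The 14 were ITGA3, ITGA5, ITGB1, ITGB4, ITGB5, LAMA3, FN1, TNC, THBS1, SPARC, POSTN, LOXL2, TIMP1 and TIMP3, and the 4 were ITGA1, LAMA4, COL12A1 and MMP7. That fit removes the control that differs most, so its p-values may understate the spread between controls. With all 6 libraries and offsets for GC content and length, 15 passed, 12 higher and 3 lower, beside 12.9% and 8.76% of 16975 genes. In these 2 fits 13 genes were called in both, each in the same direction, 13 of 18 and 13 of 15. The 2 fits share every library but DMSO 11, so their calls are not independent. One leaves out DMSO 11 and the other offsets the trend of each library with GC content and length. The share of all tested genes called in both was not counted. FN1, ITGA5, ITGB5, SPARC and COL12A1 passed in the first of these fits and not the second, and ITGB3 and COL5A1 in the second and not the first. With all libraries, 10 of the 46 genes had treated libraries all above and 5 all below the controls, where 17.0% and 15.5% of all tested genes did.

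DMSO 11 departed from the other controls in step with base composition across the 46 genes. It was the highest control for 26 genes, the lowest for 14 and between the others for 6. AGRN, with a GC content of 67.5% in its longest transcript, stood in DMSO 11 at 3.55 times the mean of DMSO 10 and 12, and LAMA5 (66.4%) at 3.27 times. At the other end POSTN (39.0%) was at 0.492 times, ITGAV (38.3%) at 0.570 times and ITGB1 (40.0%) at 0.682 times that mean. LAMA3 (50.7%), TNC (54.0%) and THBS1 (45.6%) were at 0.926, 1.34 and 1.11 times. Across the 46 genes the log2 ratio followed GC content with a Spearman rho of 0.94 and a Pearson r of 0.94, a description over genes that share the same 3 libraries. Whether base composition accounts for the difference was not tested.

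**Figure D4:**
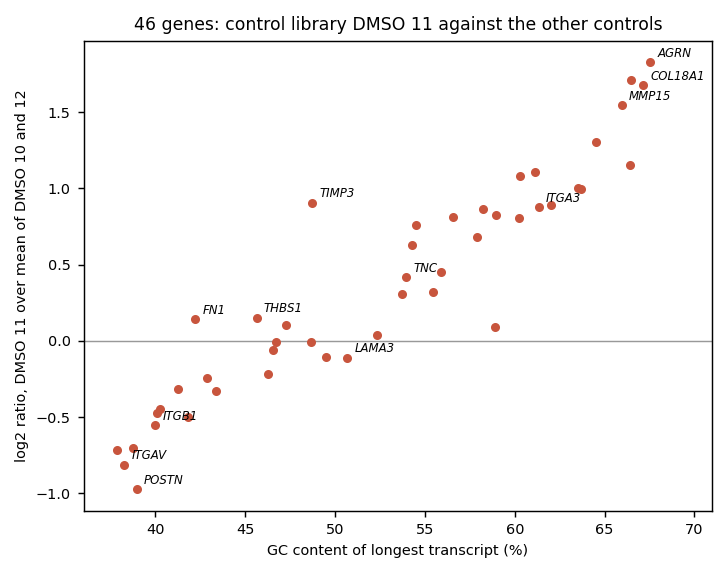
Log2 ratio of DMSO 11 to the mean of DMSO 10 and 12 (y axis, CPM with 0.1 added) against the GC content of the longest transcript (x axis, %) for the 46 genes. Genes with low GC content such as POSTN lie below 0 and genes with high GC content such as AGRN above it, with LAMA3 and THBS1 near 0.

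Of 121 further genes of adhesion and matrix in 6 lists, 110 were tested, of which 3 rose and 1 fell. Over all tested genes 3.11% were called higher and 0.921% lower, so these counts are near the all-gene shares. Among 14 further integrin and laminin subunits 0 passed in either direction. Among 28 focal adhesion genes 0 rose and TNS3 fell. TNS3, a tensin that links integrin tails to actin, was at 61.4, 68.7 and 48.9 CPM in the controls and 32.6, 29.9 and 26.1 CPM in the treated libraries. Its log2 fold change was -1.01 ± 0.178 (edgeR adjusted p = 0.0221) and -0.89 without DMSO 11. It no longer passed without DMSO 10 (adjusted p = 0.0952), without fenbendazole 7, 8 or 9 (0.111, 0.135 and 0.154) and with FPKM (0.0534).

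Among 28 further matrix proteins 2 rose, the matricellular genes CCN1 and CCN2, which encode cysteine-rich proteins that bind integrins. CCN1 was at 30.4, 31.7 and 35.5 CPM in the controls and 82.4, 78.9 and 79.5 CPM in the treated libraries, 1.303 ± 0.131 on the log2 scale (edgeR adjusted p = 0.00261) and 1.29 without DMSO 11. CCN2 was at 7.80, 11.1 and 6.25 CPM against 33.4, 32.3 and 29.6 CPM, 1.91 ± 0.239 (edgeR adjusted p = 0.0072) and 2.17 without DMSO 11. It no longer passed without fenbendazole 7 or 8 (0.0559 and 0.0525). The window upstream of CCN2 held 3 TEAD motifs. Among 21 further proteases and inhibitors 1 rose, ADAMTS1, which cleaves versican, from 20.9 ± 2.40 to 62.4 ± 1.27 CPM (1.58 ± 0.149, edgeR adjusted p = 0.00193), and 1.51 without DMSO 11. For CCN1 and ADAMTS1 the call held in 6 of 6 fits that each left out 1 library. Of 13 non-integrin matrix receptors and 17 collagen folding and crosslinking enzymes 0 passed in either direction. Without DMSO 11 the 6 lists gave 30 higher and 10 lower of 110, where 13.1% and 9.23% of all genes were called. Focal adhesion genes gave 13 and 1, non-integrin receptors 6 and 2, further matrix proteins 5 and 2, further proteases and inhibitors 4 and 0, collagen folding and crosslinking enzymes 2 and 4, and integrin and laminin subunits 0 and 1. The medians of the 110 genes were -0.04 with all libraries and 0.12 without DMSO 11.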

How the data were processed

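Poly(A) RNA libraries of SKOV3 cells were compared, 3 with DMSO and 3 with fenbendazole. The deposited table gives raw read counts per gene as whole numbers and, per the file headers, FPKM for the same libraries. The submitters' processing notes name GRCh38 as the build and list CASAVA 1.8, StringTie 1.3.4b, HISAT2 2.1.0 and edgeR as tools. The strand and multi-mapping settings of the counting were not found in the labels or headers, so overlapping genes cannot be separated with certainty.

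Counts were tested over all genes with edgeR 4.0.16 (R 4.3.3; quasi-likelihood F test, robust dispersions, TMM scaling, edgeR's own low-count filter, Benjamini-Hochberg). Each SE is the absolute log2 fold change over the root of F. Levels are TMM-scaled CPM, or deposited FPKM where genes are compared with each other. DESeq2 1.42.0, limma 3.58.1, other scalings and filters, GC and length offsets (GENCODE v29 longest transcripts) and leaving out each library were alternatives. The fit was tested on simulated data. Replicate libraries were distinct (chi-square of 5.34 or more per degree of freedom in each pair). The members and lists were chosen with earlier results of these data known. The rule for named genes took those past the threshold, the 2 of highest FPKM and the 1 of largest fitted change in each class, and up to 3 called genes of each other list. Further members are named so that all are accounted for, and FOSL1, JUN and TGFB3 beside the motifs. A gene of the other lists is not reported here and was left out of their counts.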

Additional observations from a re-analysis of the deposited data

How the results depend on the processing

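With 3 libraries a group the number of calls depended on single libraries and on how GC content was handled. Over all genes, 540 higher and 160 lower calls became 998 and 699 with DESeq2, 2197 and 1487 with GC and length offsets, 2434 and 2153 with limma-voom library quality weights, and 193 and 17 at an adjusted p of 0.01. Among the 46 genes, 3 higher and 0 lower became 12 and 3 with the offsets and 11 and 7 with the weights. Among the other lists, 3 higher and 1 lower became 8 and 3 with DESeq2, 30 and 10 with the offsets and 27 and 14 with the weights; the lower count was 2 with a filter of 1 CPM or upper-quartile scaling and 0 with limma on FPKM or at an adjusted p of 0.01. Members called and at least 2-fold higher went from 1 to 2 with DESeq2, FPKM or the weights and to 4 with the offsets. Leaving out 1 library gave 139 to 2313 higher and 8 to 1633 lower calls over all genes, 0 to 14 and 0 to 4 among the 46, 2 to 30 and 0 to 10 in the other lists, and 0 to 3 members at least 2-fold higher; in each of these ranges the highest value came without DMSO 11. Causes were not tested. No named gene past the threshold changed sign in any alternative run. No paired analysis was possible because DMSO 10 to 12 and fenbendazole 7 to 9 have no number in common. Genes with few counts, such as MMP14, are limited by depth.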
